A study of Mus musculus with 2 samples.

Results

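The ERK pathway feedback genes were 10 genes listed by name: Spry1, Spry2, Spry4, Spred1, Spred2, Dusp4, Dusp6, Etv1, Etv4 and Etv5. Each of the 10 had 1 row among the 49585 gene rows of both deposited tables. RNA sequencing measured them in cultured Nestin+ mesenchymal stromal cells from the heart and from the bone marrow of C57BL/6 mice 7 days old, at passage 10. The mice carried a Nestin-GFP transgene, a green fluorescent reporter tied to the gene of the intermediate filament protein nestin. The heart cells received 20 ng/ml EGF, 20 ng/ml of basic FGF and 4 ng/ml of cardiotrophin-1 in a DMEM/F12 and IMDM mixture with N2 and B27 supplements. The bone marrow cells grew in another medium whose makeup the labels do not list, so tissue and medium cannot be told apart. Each tissue gave 1 library, so no difference has a replicate check, and fewer expressing cells cannot be told apart from less RNA per cell.

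Receptor tyrosine kinases, among them the receptors for EGF and FGF, switch on Ras and then the kinases Raf, MEK and ERK. Active ERK raises transcription of genes whose products turn the same pathway down, and these transcripts are widely used as a readout of pathway output. Sprouty proteins act near the receptor and Ras, Spred proteins recruit the Ras inhibitor neurofibromin to the membrane, and the phosphatases Dusp4 and Dusp6 remove phosphate from MAP kinases. The PEA3 factors Etv1, Etv4 and Etv5 are ETS transcription factors induced in the same setting, in many tissues downstream of FGF.

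The libraries held 64872683 reads for heart and 53999963 for bone marrow, as recovered from the values. Values are RPKM, reads scaled by gene model length and library size. Of 12 mesenchymal stromal markers, 11 were at or above 1 RPKM in heart and 10 in bone marrow. No marker of cardiomyocytes (10 genes), erythroid cells (6) or glia and neural crest (6) reached 1 RPKM in either library. Of 8 endothelial markers, 1 reached it, in bone marrow only (Vwf, 1.13 RPKM against 0.00768 in heart). Of 6 epithelial markers, 1 reached it, also in bone marrow only (Krt14, 1.22 RPKM, listed at 0 in heart). Of 13 leukocyte markers, 3 reached it in both libraries (Cd53, Cd14 and Lyz2), with summed levels of 9.79 RPKM in heart and 5.81 in bone marrow. Ptprc, the defining leukocyte gene, was listed at 0 in heart and had 0.00469 RPKM in bone marrow. Nes, the gene of the label, had 8.74 RPKM in heart, against 1.20 in bone marrow.

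Promoter windows of RefSeq (GRCm38.p6), each holding 250 bases before and 50 after a gene start, were found for 7 of the 10 genes. The others are Spry4, Dusp4 and Etv4. The bases before the start are shown for Spry2, Dusp6 and Spry1, the 3 genes whose window start is the start of their gene row. Of these, Spry2 and Dusp6 were higher in heart, and Spry1 had nearly equal levels. Capitals mark the octamer of capicua, a repressor of the PEA3 genes that ERK signalling relieves. All 3 windows are written 5′ to 3′ on the gene's strand.
Spry2: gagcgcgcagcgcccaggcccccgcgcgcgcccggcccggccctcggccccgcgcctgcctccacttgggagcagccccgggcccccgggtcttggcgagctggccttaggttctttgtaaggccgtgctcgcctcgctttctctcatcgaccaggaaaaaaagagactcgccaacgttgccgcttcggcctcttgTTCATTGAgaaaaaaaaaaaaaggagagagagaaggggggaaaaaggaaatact
Dusp6: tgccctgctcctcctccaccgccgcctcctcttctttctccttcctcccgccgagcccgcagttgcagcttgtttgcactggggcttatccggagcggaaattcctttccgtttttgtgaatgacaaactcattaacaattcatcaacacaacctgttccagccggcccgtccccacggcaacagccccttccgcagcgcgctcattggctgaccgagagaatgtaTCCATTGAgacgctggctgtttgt
Spry1: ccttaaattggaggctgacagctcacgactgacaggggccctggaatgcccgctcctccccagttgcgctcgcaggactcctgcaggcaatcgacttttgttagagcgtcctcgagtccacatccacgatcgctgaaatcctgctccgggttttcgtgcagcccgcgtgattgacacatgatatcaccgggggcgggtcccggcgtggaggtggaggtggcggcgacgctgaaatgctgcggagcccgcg
The Spry2 window lies at chr14:105896820-105897069 on the minus strand, the Dusp6 window at chr10:99262981-99263230 on the plus strand and the Spry1 window at chr3:37639697-37639946 on the plus strand. The octamers searched, on both strands, were TGAATGAA, TGAATGGA, TCAATGAA and TCAATGGA. Spry2 had 1 match, read as TTCATTGA from 54 to 47 bases before the start. Dusp6 had 2 matches, of which TCCATTGA lies 24 to 17 bases before the start. The other does not lie wholly before the start and is not shown whole. No match was found in the windows of Spry1, Spred1, Spred2, Etv1 and Etv5, of which Spred1, Etv1 and Etv5 were also called higher in heart. The windows of Spred1, Spred2, Etv1 and Etv5 are placed at other starts than those of their gene rows. Among all 32851 windows, 3.84% held at least 1 octamer and 0.183% held 2 or more. The ETS heptamer AGGAAGT, on either strand, was found in the Spred2 window and in 1 of the 2 windows of both Etv1 and Etv5, against 9.35% of all windows. These matches describe letters only, and the motifs were chosen after the expression values had been seen.

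All 10 genes had a higher RPKM in heart than in bone marrow, by 1.01-fold to 40.6-fold. A gene was called higher in a library when log2((heart + 1)/(bone marrow + 1)) reached 1 or -1 and at least 1 of the libraries held 5 RPKM. By that rule 7 of 10 genes were higher in heart: Spry2, Spry4, Spred1, Dusp4, Dusp6, Etv1 and Etv5. None was higher in bone marrow, Spry1 and Spred2 were called neither, and Etv4 lay under the floor of 5 RPKM. Among all 7659 genes at or above the floor, 7.56% were called toward heart and 9.51% toward bone marrow. The floor was reached in both libraries by 6 of the genes, and 4 of these 6 were called higher in heart, against 3.7% of the 6049 genes at that level in both. Spry4, Etv1 and Etv5 reached the floor in heart alone, so a difference is built into their passing.

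The median log2 ratio of the 10 genes was 1.34, against -0.11 over the 11355 genes at or above 1 RPKM in either library. Summed over the 10 genes, the level was 166 RPKM in heart and 62.3 in bone marrow, 2.67-fold. With 1 library a tissue these numbers and the counts of calls above describe the libraries and carry no test. The 10 genes were also chosen with earlier results of these data known. The added 1 RPKM shrinks the log2 ratio of low genes, and with 5 RPKM added in its place 4 of the 10 genes were still called higher in heart, as were 3 at a 4-fold threshold.

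**Figure D1:**
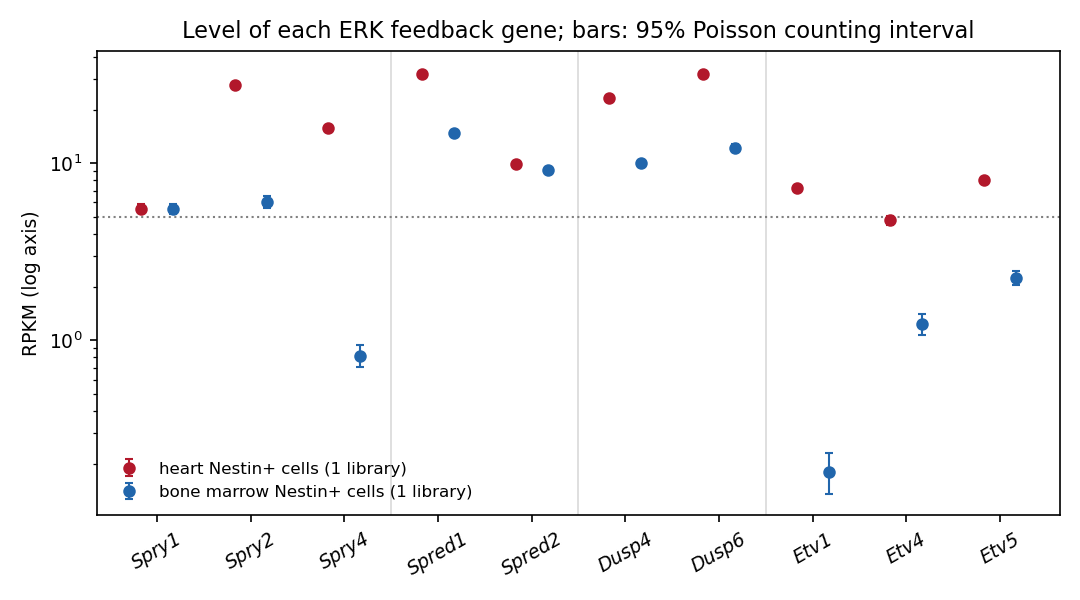
RPKM of the 10 genes on a log axis, heart in red left of bone marrow in blue, with bars for the 95% Poisson counting interval and a dotted line at 5 RPKM. The heart points lie between 4.75 and 32.0 RPKM, while the bone marrow points spread from 0.179 to 14.9.

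The sprouty genes ranged from nearly equal levels to a 19.4-fold difference. Spry1 (chromosome 3, 37639947 to 37644598, plus strand) had 5.54 RPKM in heart, against 5.49 in bone marrow, from 1045 reads in heart and 862 in bone marrow. Heart exceeded bone marrow 1.01-fold (95% counting interval 0.921 to 1.11), a difference within counting error on the deposited scaling. Under median ratio scaling the Spry1 log2 ratio was 0.14 in place of 0.01. Spry1 is known for restraining FGF and GDNF signalling in development, kidney included.

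Spry2 (chromosome 14, 105891949 to 105896819, minus strand) had 27.6 RPKM in heart, against 6.07 in bone marrow. Its ratio was 4.54, with a 95% interval from 4.19 to 4.94, based on 3727 reads in heart and 683 in bone marrow, both inferred from the values. Spry2 binds the ubiquitin ligase Cbl and the adaptor Grb2. Spry4 (chromosome 18, 38586268 to 38601268, minus strand) had 15.8 RPKM in heart, against 0.816 in bone marrow. Its ratio of 19.4 had an interval of 16.8 to 22.4. On the log2 scale Spry4 reached 3.21, exceeded by 100 of the 7659 genes at or above 5 RPKM. Spry4, like its relatives, carries the cysteine-rich sprouty domain and inhibits Ras signalling after growth factors.

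The makeup of the family therefore differed between the libraries. The summed sprouty level was 48.9 RPKM in heart and 12.4 in bone marrow, 3.95-fold. Spry1 made up 11.3% of the sum in heart and 44.4% in bone marrow, at nearly the same level in both. Spry4 made up 32.3% in heart and 6.59% in bone marrow. Spry2 made up the largest share in both, 56.3% in heart and 49.0% in bone marrow. Shares of summed reads instead of RPKM, which weigh long genes more, put Spry4 first in heart with 49.7% and Spry1 first in bone marrow with 49.3%.

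The Spred genes encode relatives of sprouty with an added EVH1 domain, and loss of human SPRED1 causes Legius syndrome. Spred1 (chromosome 2, 117121374 to 117182279, plus strand) had 32.0 RPKM in heart, a level that Dusp6 matched within counting error, against 14.9 in bone marrow, where it was the most abundant of the 10 genes. Its ratio of 2.15 had limits of 2.08 and 2.22, and on the log2 scale 1.05 was just past the threshold. Spred2 (chromosome 11, 19924375 to 20024026, plus strand) had 9.94 RPKM in heart, against 9.16 in bone marrow. The Spred2 ratio of 1.09 had a counting interval of 1.03 to 1.15, which lies above 1 and far under 2-fold. Spred1 thus made up 76.3% of the Spred1 and Spred2 sum in heart and 61.9% in bone marrow.

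The phosphatase genes kept nearly the same proportions at a higher sum. Dusp6 encodes a cytoplasmic phosphatase with a strong preference for ERK, and Dusp4 a nuclear one that also acts on other MAP kinases. Dusp6 (chromosome 10, 99263231 to 99267488, plus strand) had 32.0 RPKM in heart, against 12.2 in bone marrow, a ratio of 2.62 with an interval of 2.49 to 2.77. Dusp4 (chromosome 8, 34807297 to 34819894, plus strand) had 23.4 RPKM in heart, against 9.97 in bone marrow, a ratio of 2.35 with an interval of 2.22 to 2.50. Dusp6 made up 57.7% of their sum in heart, against 55.0% in bone marrow. That sum was 2.50-fold higher in heart.

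The PEA3 factors were the least abundant group and had the largest fold of sums, 20.1 RPKM in heart and 3.66 in bone marrow, 5.48-fold. Etv1 (chromosome 12, 38779380 to 38868215, plus strand), a factor known in cardiac conduction and in interstitial cells of Cajal, had 7.27 RPKM in heart, against 0.179 in bone marrow. Its ratio of 40.6 had a wide interval of 31.2 to 53.7, with 2779 reads behind the heart value and 57 behind the bone marrow value. Etv1 had the lowest level of the 10 genes in bone marrow and ranked 8 in heart.

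Etv5 (chromosome 16, 22381309 to 22439719, minus strand), known for germline stem cell renewal and lung branching, had 8.04 RPKM in heart, against 2.25 in bone marrow. The Etv5 ratio was 3.57, with an interval of 3.24 to 3.94. Etv4 (chromosome 11, 101769742 to 101785371, minus strand), which acts with Etv5 in limb and kidney development, had 4.75 RPKM in heart, against 1.23 in bone marrow. The Etv4 ratio was 3.86, with an interval of 3.32 to 4.51. Etv4 was not called because 4.75 RPKM is under the floor, while its log2 ratio of 1.37 was past the 2-fold mark. Etv5 made up 40.1% of the PEA3 sum in heart and 61.5% in bone marrow, and Etv1 36.3% in heart and 4.90% in bone marrow. Shares of summed reads put Etv1 first in heart, with 47.3% against 36.4% for Etv5. In bone marrow Etv5 stayed first by reads, with 65.5%.

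**Figure D2:**
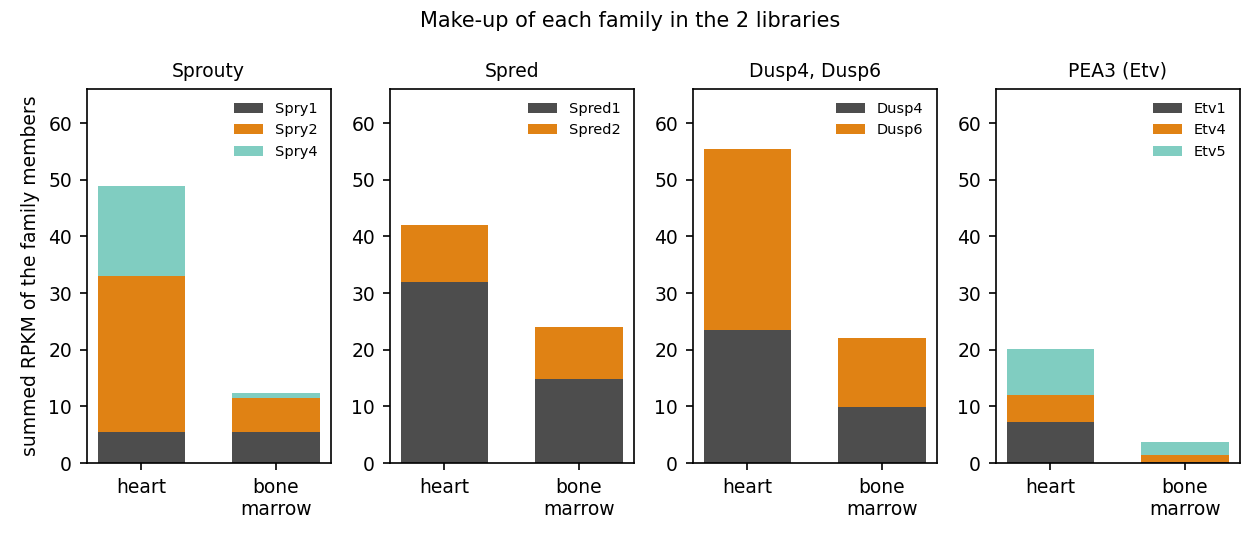
Stacked RPKM of each family, heart left of bone marrow, with one colour for each gene. The sprouty bar reaches 48.9 RPKM in heart and 12.4 in bone marrow with the Spry1 layer nearly equally thick in both, and the Etv1 layer of the PEA3 bar is nearly absent in bone marrow.

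Levels can be ordered within a library, since RPKM is per length. The order also rests on the gene model lengths used for RPKM, which the counting intervals do not cover. In heart the order was Spred1, Dusp6, Spry2, Dusp4, Spry4, Spred2, Etv5, Etv1, Spry1 and Etv4. Spred1 and Dusp6 were indistinguishable there by counting error, and the 95% Poisson intervals of all other neighbours did not overlap. In bone marrow the order was Spred1, Dusp6, Dusp4, Spred2, Spry2, Spry1, Etv5, Etv4, Spry4 and Etv1. There the intervals of Dusp4 and Spred2 overlapped, as did those of Spry2 and Spry1. Spry4 ranked 5 of 10 in heart and 9 of 10 in bone marrow.

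**Figure D3:**
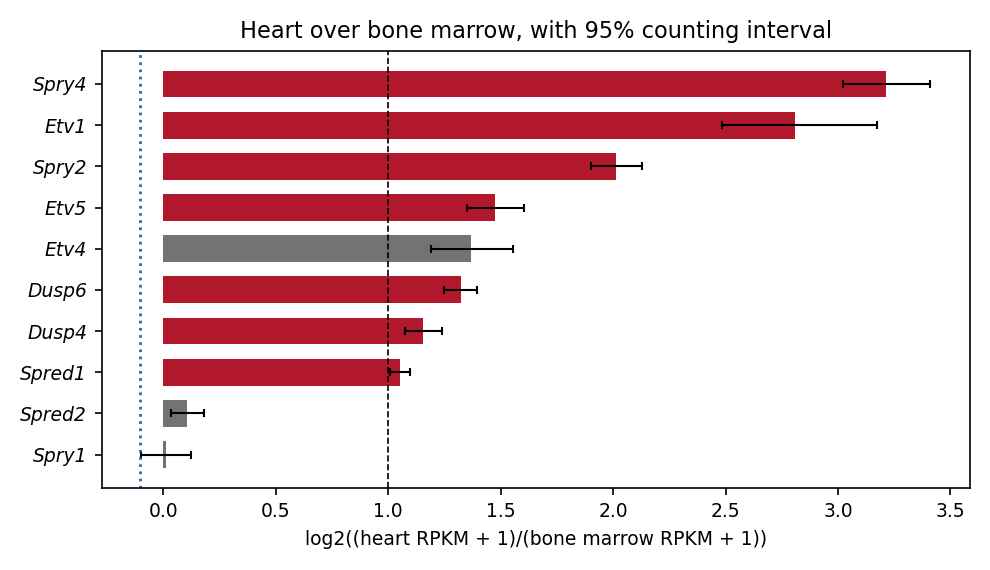
Log2 ratio of heart over bone marrow on the log2(RPKM + 1) scale for the 10 genes, with bars for the 95% counting interval, a dashed line at 2-fold and a dotted line at the all-gene median of -0.11. Red bars are the 7 genes called higher in heart, and the grey bars are Etv4, Spred2 and Spry1, with 1.37, 0.11 and 0.01.

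Overlapping gene rows could share reads with a member. There were 3 such rows, Gm42922 at Spry1 and Gm27369 and Gm27804 at Spry4, and all 3 were listed at 0 in both libraries. The use of strand is not given in the sources used here.

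Other genes of the pathway were read from 6 lists with 93 symbols, of which 92 were found and 65 reached 5 RPKM in the higher library. Of these 65 genes, 7 were called toward heart, 10 toward bone marrow, and 48 were called neither, beside the all-gene shares of 7.56% toward heart and 9.51% toward bone marrow. Among 12 growth factor receptors, 7 reached the floor, and of these 2 were called toward heart, 1 toward bone marrow and 4 neither. Egfr, the EGF receptor gene, had 20.7 RPKM in heart, against 2.75 in bone marrow (log2 ratio 2.54). Pdgfra, a PDGF receptor gene, had 27.6 RPKM in heart and 11.6 RPKM in bone marrow, and a log2 ratio of 1.19. Fgfr1 was the main FGF receptor transcript in heart, at 43.7 RPKM, against 37.7 in bone marrow. Fgfr2 was nearly absent from heart, at 0.177 RPKM, against 28.4 in bone marrow. Egfr was called toward heart, Fgfr2 toward bone marrow and Fgfr1 neither. Any link of these receptor levels to the EGF and basic FGF added to the heart medium was not tested.

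Of 22 genes for adaptors, Ras, Raf, MEK, ERK and their direct targets, 17 reached the floor and all 17 were called neither, with log2 ratios from -0.90 for the MEK gene Map2k2 to 0.84 for the adaptor gene Shc1. Over all genes at or above the floor 17.1% were called in either direction, and with 17 genes nothing is read from this count about the cascade. Ksr1, a scaffold gene of the cascade, had 3.25 RPKM in heart, against 0.770 in bone marrow, under the floor (log2 ratio 1.26). These 3 genes were named after their values were seen. Mapk3, which encodes an ERK kinase, had a log2 ratio of 0.33. The median of the 20 cascade genes at or above 1 RPKM was -0.23.

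Other inhibitors of receptor and Ras signalling went both ways. Of 15 found, 11 reached the floor, with 3 called toward heart, 1 toward bone marrow and 7 neither. Beside these counts, 7.56% of all genes at the floor were called toward heart and 9.51% toward bone marrow. The median was 0.40 over the 13 at or above 1 RPKM. Lrig1, a membrane protein that lowers EGF receptor levels, had 54.1 RPKM in heart, against 5.35 in bone marrow (log2 ratio 3.12). Rasa1, a GTPase-activating protein of Ras, had 58.9 RPKM in heart and 12.1 RPKM in bone marrow, a log2 ratio of 2.19. Errfi1, an inhibitor of the EGF receptor kinase, had 23.8 RPKM in heart and 10.8 RPKM in bone marrow. Lrig3 went toward bone marrow, with 11.2 RPKM in heart against 33.6 in bone marrow. Spred3, the remaining Spred gene, had 3.56 RPKM in heart, against 0.938 in bone marrow, under the floor, and was named after its values were seen.

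Of 9 other MAP kinase phosphatases, 3 reached the floor, with none called toward heart, 1 toward bone marrow and 2 neither. The all-gene shares were 7.56% toward heart and 9.51% toward bone marrow, and with 3 genes nothing is read from this count. Dusp8, which acts mainly on JNK and p38, had 0.187 RPKM in heart, against 6.46 in bone marrow. Dusp1, an immediate early phosphatase gene named after its values were seen, had 17.9 RPKM in heart and 36.7 RPKM in bone marrow, with a log2 ratio of -0.998, just short of the threshold. The median of the 7 at or above 1 RPKM was -0.84.

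Other ERK-responsive transcripts, many of them immediate early genes, were called toward bone marrow more often than toward heart. Of 18, 14 reached the floor, with 1 called toward heart (2 or 3 under each scaling between libraries), 7 toward bone marrow and 6 neither. Over all genes at or above the floor, the shares were 7.56% toward heart and 9.51% toward bone marrow. Their median was -0.73 over the 16 at or above 1 RPKM. Epha2, an ephrin receptor gene, had 0.204 RPKM in heart, against 12.1 in bone marrow. Ccnd1, which encodes cyclin D1, had 15.5 RPKM in heart, against 106 in bone marrow (log2 ratio -2.70). The AP-1 gene Fosl1 and the EGF family ligand gene Hbegf had log2 ratios of -2.31 and -2.22. The remaining 3 toward bone marrow were Lif, Myc and Fos, with -2.03, -1.75 and -1.14, and the gene higher in heart was the membrane protein gene Emp1, with 1.18. Phlda1, with 0.99, lay just under the threshold, and these 5 genes and Epha4 were named after their values were seen. Ccnd1, Epha2, Epha4 and Phlda1 are often read together with the sprouty, Dusp and Etv genes as a score of MAP kinase output in tumours. In these libraries Epha4 had 0.0632 RPKM in heart, against 0.713 in bone marrow, so of the 4 only Phlda1 was higher in heart, under the threshold. Ccnd1 and Myc are also tied to cell division, and their part in the list's direction was not tested.

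Of 16 genes of the capicua complex and other ETS factors, 13 reached the floor, with 1 called toward heart, none toward bone marrow and 12 neither, against 7.56% of all genes called toward heart and 9.51% toward bone marrow. The median over all 16 was 0.18. The 1 higher in heart was Erg, an ETS factor best known in endothelial cells, with 6.06 RPKM in heart against 0.299 in bone marrow. The 8 endothelial markers summed to 0.961 RPKM in heart and 1.38 in bone marrow, with Cdh5 at 0.00734 in heart and 0.00441 in bone marrow. Most of the bone marrow sum was Vwf, with 1.13 RPKM there against 0.00768 in heart. Cic, which encodes capicua and was named after its values were seen, had 21.6 RPKM in heart, against 15.4 in bone marrow (log2 ratio 0.46).

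**Figure D4:**
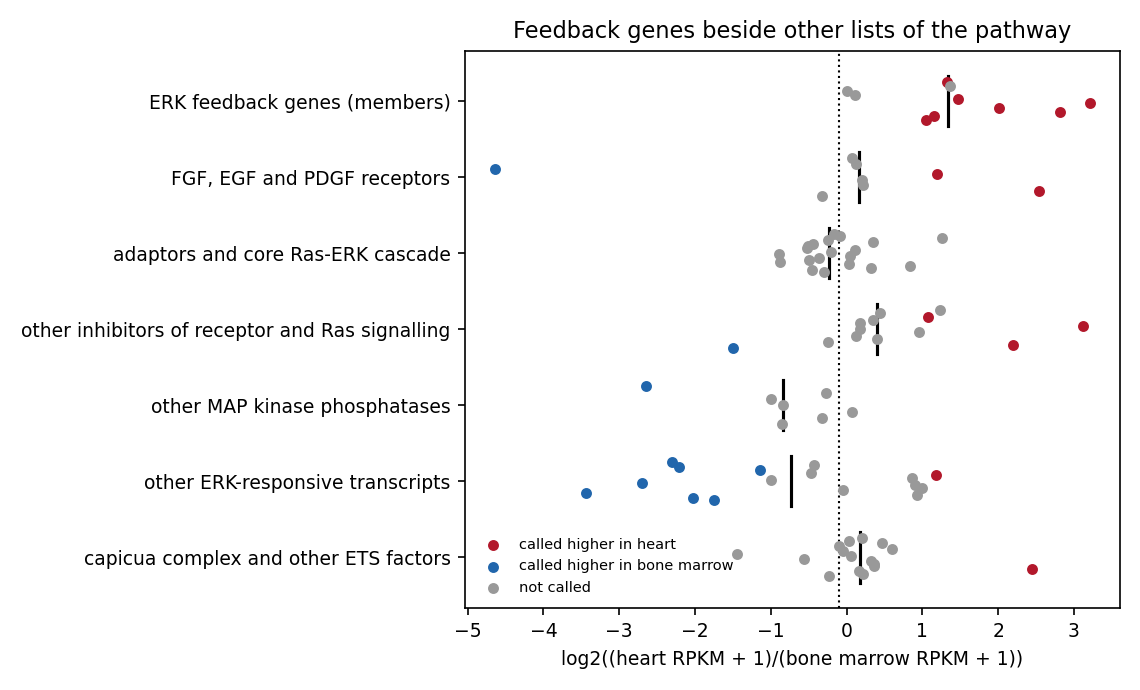
Log2 ratio of heart over bone marrow for the 10 feedback genes and for the genes at or above 1 RPKM of 6 other pathway lists, with a short bar at each median and a dotted line at the all-gene median. The feedback genes have a median of 1.34, the core cascade -0.23 and the other ERK-responsive transcripts -0.73, and red and blue points are genes called toward heart and toward bone marrow.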

How the data were processed

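The authors deposited RPKM, per the file headers, from 1 library for each tissue. The aligner, counting tool and strand setting were not given in the sources used here. The submitters' processing notes name mm8, but 91.1% of rows have the region of a GENCODE M21 gene model, so coordinates, given as in the files, were read on GRCm38. Library totals were recovered as the numbers that make RPKM times exon length whole: 86.2% of 14255 rows came out whole in both libraries within 0.02 reads. For 6 members the gene model length held. For Spry2, Spry4, Dusp6 and Etv1, whose regions match no model, the smallest whole reads and length giving both RPKM values were used, a step chosen after seeing the data. On 7477 genes of known length it returned that length for 82.2%, and otherwise mostly a whole fraction of it, which widens the interval. Intervals are 95% (exact Poisson for levels, Clopper-Pearson for ratios) and cover counting error in these libraries only, not variation between libraries. PCR copies of 1 molecule cannot be recognised, so the intervals may be too narrow even for counting error. The reads are derived, so no count model was fitted, and with 1 library a tissue no p-value was computed. Rows sharing a symbol were represented by the one with the highest mean.

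The 10 members and the 6 lists were chosen with earlier results of these data known. Beside the members, text names up to 4 called genes of each list with the largest ratio, plus Egfr, Fgfr1, Fgfr2, Mapk3 and overlapping rows, with the exceptions stated; 1 other gene the rule takes is not reported here. No gene is named for likeness of pattern, which 2 libraries cannot show. Marker lists were of mesenchymal stromal, leukocyte, endothelial, cardiomyocyte, erythroid, glial and epithelial cells; the 6 epithelial markers summed to 0.125 RPKM in heart and 2.16 in bone marrow. Alternatives changed the pseudocount, floor, fold threshold, scaling, shared rows and list filter. The software was pandas 2.3.3, numpy 2.4.6 and scipy 1.17.1 under Python 3.11.15, with matplotlib 3.10.9 for figures, and the steps were tested on simulated data.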

Additional observations from a re-analysis of the deposited data

How the results depend on the processing

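The log2 ratios of all 10 feedback genes stayed above 0 under each of the 7 alternatives of pseudocount, scaling and shared rows, and none of the 10 was called higher in bone marrow under any of the 12 alternatives to the call. The number called higher in heart was 7 as reported, 4 with a pseudocount of 5 RPKM, 4 with a floor of 20 RPKM and 3 at a 4-fold threshold (Spry2, Spry4 and Etv1). Spred1, Dusp4 and Etv5 lost their call at the pseudocount of 5, by construction of a larger pseudocount. Etv4 gained a call with a floor of 1 RPKM or none, and under the median ratio, upper quartile and RPKM sum scalings. The median of the 10 was 1.59 and 0.91 with pseudocounts of 0.1 and 5 RPKM, 1.48, 1.42, 1.41 and 1.43 under median ratio, upper quartile, trimmed mean and RPKM sum scaling, and 1.32 over the 9 at or above 5 RPKM. Median ratio scaling shifts log2 ratios of abundant genes by 0.15 and turns the all-gene split of 579 higher in heart and 728 in bone marrow into 704 and 583. All genes higher in heart numbered 383 with a pseudocount of 5, 883 with a floor of 1 RPKM, 883 with no floor, 263 with a floor of 20, 994 at 1.5-fold and 257 at 4-fold. All genes higher in bone marrow numbered 424 with a pseudocount of 5, 315 with a floor of 20, 1562 at 1.5-fold and 229 at 4-fold. Genes of the 6 pathway lists called in either direction numbered 17 as reported, 11 with a floor of 20, 26 at 1.5-fold and 11 at 4-fold. ERK-responsive transcripts called higher in heart numbered 1 as reported and 2 or 3 under each scaling, while those higher in bone marrow were within 1.5 times of 7 except with a floor of 20 RPKM, which left 3. Of 112 ratios of the 16 other genes that the naming rule takes, 0 changed direction while called. Family shares moved by over 1 point in 15 of 20 values when reads replaced RPKM, because reads grow with length.

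No paired analysis was possible because each tissue has 1 library and no test was made. Depth limits mainly Etv1, Spry4 and Etv4 in bone marrow, with 57, 202 and 206 reads. For Spry2, Spry4, Dusp6 and Etv1 the smallest possible reads were used, and a whole multiple would narrow their intervals and leave RPKM and ratios as they are.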
